A study of Rattus norvegicus with 24 samples.

Results

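The genes described here encode 6 subunits of the NADPH oxidases, the enzymes that carry electrons from NADPH across a membrane to oxygen and so make superoxide or hydrogen peroxide. They are Nox4, Cybb, Cyba, Ncf1, Ncf4 and Rac2, taken as the probes whose gene name in the scanner files is one of these symbols, and they are 6 of the 18641 genes measured. They were chosen with their values over the 4 diets known, so their diet differences are given as a description and without a p-value. RNA came from the livers of 24 male Wistar rats that were 6 months old when feeding began and carry a label of 9 months. For 12 weeks each rat ate a purified AIN76A-based diet, low in copper (under 0.3 mg/kg) or adequate in copper (125 mg/kg, called high copper in some sample labels), with 30% or 10% sucrose and with starch and dextrin balancing the carbohydrate. The 4 groups of 6 rats were low copper plus 30% sucrose, adequate copper plus 30% sucrose, low copper plus 10% sucrose, and the control diet of adequate copper with 10% sucrose. Each rat had 1 single-colour Agilent array.

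The phagocyte oxidase is built from a membrane pair and a set of cytosolic partners. Cybb (gp91phox) holds the flavin and heme groups that move the electrons, and Cyba (p22phox) stabilises it in the membrane. On activation of a neutrophil or macrophage the cytosolic organizer Ncf1 (p47phox) and its partner Ncf4 (p40phox) move to that pair together with the GTP-bound small GTPase Rac2. Nox4 is a relative of Cybb that also pairs with Cyba but needs none of the cytosolic subunits, is active whenever it is present and releases mainly hydrogen peroxide. In liver, Nox4 is known from hepatocytes and from activated stellate cells, while the phagocyte subunits are known from Kupffer cells and from recruited neutrophils and monocytes.

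Each subunit was read by 1 probe of 60 bases, spotted in 2 places on the array, and the probe positions are those of the array design on rat build rn4. The Nox4 probe lay at chr1:143584026-143586154 on the plus strand, a span of 2129 bases, so the probe crosses a splice junction. The Cybb probe lay at chrX:25518505-25518564 on the minus strand, the Cyba probe at chr19:52713156-52713215 on the minus strand, and the Ncf1 probe at chr12:23587232-23587291 on the plus strand. The Ncf4 probe lay at chr7:116190216-116190275 on the plus strand and the Rac2 probe at chr7:116520067-116520126 on the minus strand. The oligos of the 2 catalytic subunits and of Ncf4 are printed to show what was hybridised.
Nox4: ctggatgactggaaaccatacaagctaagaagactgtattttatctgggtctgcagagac
Cybb: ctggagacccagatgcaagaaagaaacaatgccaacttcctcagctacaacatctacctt
Ncf4: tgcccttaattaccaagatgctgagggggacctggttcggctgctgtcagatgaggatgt

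Because the phagocyte subunits varied together across rats, the start regions of the members are shown where RefSeq holds them on build GRCr8, as the 120 bases before the annotated gene start. The Nox4 stretch is chr1:150313769-150313888 on the plus strand, that of Cybb chrX:16065066-16065185 on the minus strand, that of Cyba chr19:67404215-67404334 on the minus strand and that of Ncf1 chr12:28121765-28121884 on the plus strand. The letters searched were GAGGAA, the core of the site bound by PU.1, a myeloid transcription factor known from human cells to act on CYBB, NCF1 and NCF4. Capitals mark a match to GAGGAA, which on the printed strand can read TTCCTC.
Nox4: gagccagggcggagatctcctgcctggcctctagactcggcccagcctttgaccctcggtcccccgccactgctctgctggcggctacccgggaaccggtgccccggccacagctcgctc
Cybb: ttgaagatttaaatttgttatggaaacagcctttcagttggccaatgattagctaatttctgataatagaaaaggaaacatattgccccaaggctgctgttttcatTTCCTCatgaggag
Cyba: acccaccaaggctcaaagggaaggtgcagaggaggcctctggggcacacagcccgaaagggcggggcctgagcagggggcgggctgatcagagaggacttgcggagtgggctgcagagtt
Ncf1: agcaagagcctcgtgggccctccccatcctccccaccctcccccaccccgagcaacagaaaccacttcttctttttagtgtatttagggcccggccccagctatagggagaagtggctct
Of these 4 members, 1 held the letters on either strand in the 250 bases before the start, Cybb, whose match begins 14 bases before it. Over all 33469 promoter windows of that length, 23.34% held them. The count is a description of the letters only.

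Levels are log2 of the processed signal minus the array's 75th percentile, so that 0 is the brightness of the probe at that percentile and each gene's level is comparable across rats but not with that of another gene. The 75th percentile signal ranged from 433 to 1284 over the arrays, with 59.9 to 73.4% of the probes clearly brighter than background. The labelled tissue held: all 12 hepatocyte markers were well above background on all 24 arrays. The arrays lay on 3 slides of 8. On slide 1 were the 6 low copper rats given 30% sucrose, together with 2 of the adequate copper rats given 30% sucrose, slide 2 carried the other 4 of that diet with 4 on low copper with 10% sucrose, and slide 3 carried the remaining 2 of those and all 6 control rats. Rats on adequate copper with 30% sucrose and control rats therefore shared no slide, and the same holds for low copper with 30% sucrose against control and against low copper with 10% sucrose. Among rats given adequate copper with 30% sucrose rat 5, and among those given low copper with 10% sucrose rat 2, both on slide 2, stood apart from the others of their diets, and results are given with and without that pair. The pair was named from these same data, so calls and p-values without it only describe how much rests on it.

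Nox4, the constitutively active catalytic subunit, was well above background on 23 of 24 arrays and missed only on rat 5 of adequate copper with 30% sucrose. Its lowest, median and highest levels were -2.56, -2.25 and -1.15 on low copper with 30% sucrose, while they were -5.79, -2.90 and -2.14 on adequate copper with 30% sucrose. They were -4.45, -2.73 and -1.70 on low copper with 10% sucrose, against -2.36, -2.03 and -1.78 on the control diet. The control rats lay closest together, and the lowest rat of both diets with the widest ranges was on slide 2. From the lowest mean up, the diets were adequate copper with 30% sucrose (-3.37 ± 1.34), low copper with 10% sucrose (-2.78 ± 0.95), low copper with 30% sucrose (-2.14 ± 0.51) and control (-2.03 ± 0.22; SD, n = 6 each). Every pair of neighbours in that order overlapped.

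Cybb, the catalytic subunit of phagocytes, had a dim probe that was nevertheless well above background on every array. Its lowest, median and highest levels were -4.73, -4.55 and -4.37 on low copper with 30% sucrose, while they were -4.50, -4.27 and -3.82 on adequate copper with 30% sucrose. They were -5.38, -4.07 and -2.85 on low copper with 10% sucrose, against -5.03, -4.80 and -4.13 on the control diet. Low copper with 10% sucrose held both the highest and the lowest rat of the series for this gene. Its mean was highest there (-3.96 ± 0.93), followed by adequate copper with 30% sucrose (-4.21 ± 0.23), low copper with 30% sucrose (-4.56 ± 0.13) and control (-4.71 ± 0.32), again with overlap between neighbours.

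Cyba, the membrane partner shared by Cybb and Nox4, had lowest, median and highest levels of 1.97, 2.34 and 2.92 on low copper with 30% sucrose, while they were 2.49, 2.90 and 3.58 on adequate copper with 30% sucrose. They were 1.95, 2.47 and 4.54 on low copper with 10% sucrose, against 1.99, 2.40 and 2.83 on the control diet. The low copper group with 30% sucrose and the controls covered nearly the same range, and 4 of 6 rats on adequate copper with 30% sucrose lay above the highest control. The means were 2.38 ± 0.35, 2.90 ± 0.39, 2.74 ± 0.92 and 2.42 ± 0.30 on low copper with 30% sucrose, adequate copper with 30% sucrose, low copper with 10% sucrose, and control.

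Among the cytosolic partners, Ncf1, the organizer whose phosphorylation starts assembly, gave the clearest separation. Its lowest, median and highest levels were -1.12, -0.87 and -0.11 on low copper with 30% sucrose, while they were -0.61, -0.38 and 0.73 on adequate copper with 30% sucrose. They were -1.18, -0.62 and 1.30 on low copper with 10% sucrose, against -1.22, -1.0 and -0.90 on the control diet. All 6 rats on adequate copper with 30% sucrose lay above all 6 control rats, as did 2221 of the 18641 genes (11.9%) in that comparison. On low copper, 4 of 6 rats with 30% sucrose and 5 of 6 with 10% sucrose lay above the highest control rat.

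Ncf4, which binds phosphatidylinositol 3-phosphate and holds the complex at phagosomes, had lowest, median and highest levels of -1.85, -1.62 and -1.06 on low copper with 30% sucrose, while they were -1.66, -1.04 and 0.01 on adequate copper with 30% sucrose. They were -1.94, -1.28 and 0.40 on low copper with 10% sucrose, against -1.94, -1.70 and -1.14 on the control diet. The ranges of all 4 diets overlapped, with 4 of 6 rats on adequate copper with 30% sucrose above the highest control. Rac2, the GTPase of blood cells that switches the assembled enzyme on, had levels of 0.45, 0.97 and 1.27 on low copper with 30% sucrose, while they were 0.95, 1.45 and 2.43 on adequate copper with 30% sucrose. They were 0.53, 1.08 and 3.05 on low copper with 10% sucrose, against 0.38, 0.89 and 1.28 on the control diet. For Rac2 no rat on low copper with 30% sucrose exceeded the highest control.

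**Figure D1:**
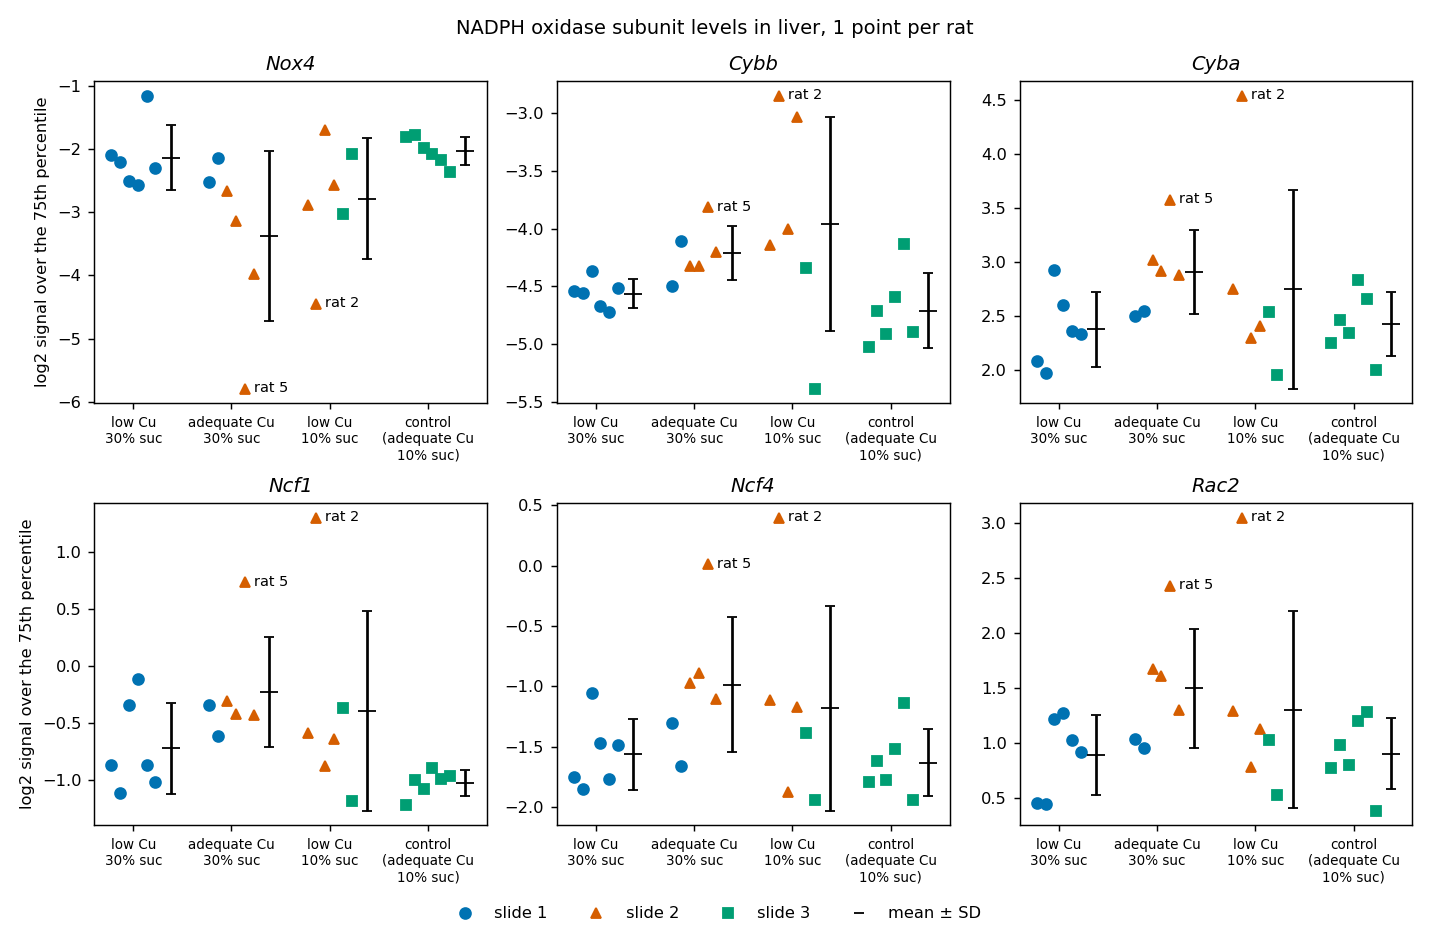
Levels of the 6 oxidase subunits in each rat, as log2 signal over the array's 75th percentile, by diet, with the slide as colour and shape and the mean ± SD beside each group (n = 6 rats per diet). Rat 5 (adequate copper, 30% sucrose) and rat 2 (low copper, 10% sucrose) lie lowest for Nox4 (-5.79 and -4.45), and rat 2 lies highest for all 5 phagocyte subunits.

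At adequate copper, rats with 30% sucrose were set against the control rats, first without a slide term. Nox4 lay lower and each phagocyte subunit lay higher. Nox4 differed by -1.34 (SE 0.47, 0.396-fold), and 0 of 6 rats lay above the control mean. Its signal was well above background on 5 of the 6 arrays of that diet, so the size of this difference rests in part on a value below detection in rat 5. The differences were 0.50 (SE 0.28) for Cybb, 0.48 (SE 0.30) for Cyba, 0.80 (SE 0.30) for Ncf1, 0.65 (SE 0.30) for Ncf4 and 0.60 (SE 0.32) for Rac2, with 5 or 6 of 6 rats above the control mean. Of the 6 members, 1 passed an adjusted p under 0.05 over all genes, Nox4, where 20.9% of all genes passed (18.4% higher and 2.48% lower). The median over all genes was 0.07. As the members were chosen on these diets, nothing is read from that count.

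Leaving out that pair brought Nox4 to -0.85 (SE 0.29) and the phagocyte subunits to between 0.35 and 0.60, and the member that passed was then Ncf1 (0.60) and no longer Nox4. Leaving out each of the 24 rats in turn, Nox4 passed in 7 of 24 fits, with differences from -1.58 (without rat 2 of adequate copper with 30% sucrose) to -0.85 (without rat 5 of that diet). These diets share no slide, and slide and diet can be separated only through the chain of shared slides. With slide as a block the differences were -1.51 (SE 0.81) for Nox4, -0.81 (SE 0.40) for Cybb, -0.08 for Cyba, 0.35 for Ncf1, 0.17 for Ncf4 and 0.06 for Rac2. Cybb and Cyba thus changed sign, and no member and no gene of all 18641 passed (758 had an unadjusted p under 0.05 with limma). In whole-liver RNA, fewer cells of a type and less RNA per cell cannot be told apart.

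Low copper at 10% sucrose, in the fit without a slide term, showed the same directions with smaller differences for 5 of the 6 members. Against control, Nox4 differed by -0.75 (SE 0.47), Cybb by 0.75 (SE 0.28), Cyba by 0.32, Ncf1 by 0.63, Ncf4 by 0.45 and Rac2 by 0.40. No member passed, where 18.6% of all genes did. The differences depended on single rats of the low copper diet. Without the pair of rats, which includes its rat 2, they were -0.42 for Nox4, 0.53 for Cybb, -0.04 for Cyba, 0.29 for Ncf1, 0.13 for Ncf4 and 0.05 for Rac2. Rat 6 of that diet pulled the other way. With only rat 6 left out they were 1.04 for Cybb, 0.48 for Cyba, 0.79 for Ncf1, 0.60 for Ncf4 and 0.55 for Rac2. Of the 24 fits that left out 1 rat each, Cybb passed in 2 and no other member passed.

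Within slide 3, where 2 low copper rats met all 6 control rats at 10% sucrose, Nox4 averaged -2.55 in the low copper rats and -2.03 in the control rats, a difference of -0.52. Ncf1 averaged -0.78 in the low copper rats and -1.03 in the control rats. The other phagocyte subunits averaged slightly lower in the low copper rats there, by -0.15 for Cybb, -0.18 for Cyba, -0.03 for Ncf4 and -0.13 for Rac2. The sign of those 4 averages is thus the opposite of that over all rats, but it rested on rat 6. Rat 6 had Cybb at -5.38, Cyba at 1.95, Ncf4 at -1.94 and Rac2 at 0.53. Rat 5 went the other way, at -4.34, 2.53, -1.38 and 1.02, where control rats averaged -4.71, 2.42, -1.63 and 0.90.

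Without a slide term, low copper with 30% sucrose lay close to control. The differences from control were -0.10 (SE 0.47) for Nox4, 0.15 (SE 0.28) for Cybb, -0.05 for Cyba, 0.31 for Ncf1, 0.07 for Ncf4 and -0.01 for Rac2. No member passed, where 1.76% of all genes did. No slide held both diets, and with slide as a block Nox4 differed by -1.32 (SE 1.01) and Cybb by -1.07 (SE 0.50), while the other 4 lay between -0.22 and 0.10.

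At 30% sucrose, low copper was set against adequate copper. Nox4 lay higher on low copper by 1.23 (SE 0.47), with 6 of 6 rats above the adequate copper mean, and the phagocyte subunits lay lower by -0.35 for Cybb, -0.53 for Cyba, -0.49 for Ncf1, -0.58 for Ncf4 and -0.61 for Rac2. No member passed and no gene of all passed (0%, with 9.87% at an unadjusted p under 0.05 with limma). With that pair left out Nox4 differed by 0.75, Cybb by -0.27, Cyba by -0.39, Ncf1 by -0.30, Ncf4 by -0.38 and Rac2 by -0.42. On slide 1, which carried both diets, Nox4 ranged from -2.56 to -1.15 in 6 low copper rats and from -2.52 to -2.14 in 2 adequate copper rats. Its difference there was 0.19, and those of the phagocyte subunits lay between -0.26 for Cybb and -0.08 for Ncf4.

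At low copper, 30% sucrose was set against 10%. Nox4 lay higher by 0.65 (SE 0.47) and the phagocyte subunits lower by -0.60 for Cybb, -0.37 for Cyba, -0.33 for Ncf1, -0.38 for Ncf4 and -0.41 for Rac2, with no member and 0% of genes passing (9.58% unadjusted). Without the pair of rats Nox4 differed by 0.31 and Cyba, Ncf1, Ncf4 and Rac2 by between -0.07 and 0.01, while Cybb stayed at -0.38. With slide as a block Nox4 turned to -0.80 (SE 0.81) and Cybb stood at -0.92 (SE 0.40).

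The interaction asks whether the copper difference at 30% sucrose equals that at 10%. It was 1.98 (SE 0.67) for Nox4, and for the phagocyte subunits -1.10 for Cybb, -0.85 for Cyba, -1.12 for Ncf1, -1.03 for Ncf4 and -1.01 for Rac2. Nox4 was the 1 member that passed, where 20.8% of all genes did. The value for Nox4 was 1.17 (SE 0.42) without the pair of rats and 0.71 (SE 0.87) with slide as a block, and neither passed. It passed in 15 of 24 fits that left out 1 rat each, with values from 1.5 (without rat 5 of adequate copper with 30% sucrose) to 2.23. Without the pair the phagocyte values were -0.80 for Cybb, -0.36 for Cyba, -0.59 for Ncf1, -0.51 for Ncf4 and -0.47 for Rac2. With the block the phagocyte subunits lay between -0.49 for Ncf1 and 0.04 for Cyba. These comparisons share groups of rats, so their values are not independent of each other.

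**Figure D2:**
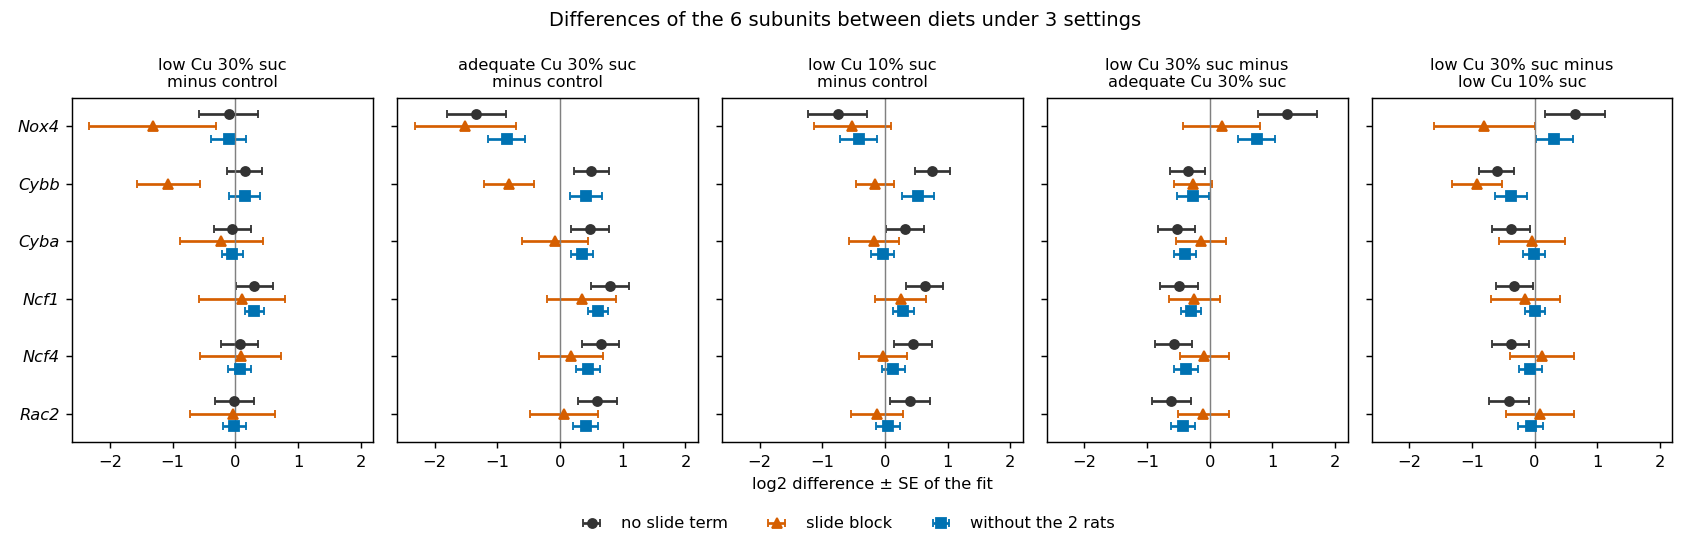
Differences of the 6 subunits in log2 units with the SE of the fit, for 5 diet comparisons in 3 settings, which are no slide term, a slide block, and the 2 distinct rats left out. For adequate copper with 30% sucrose minus control, Nox4 lies at -1.34, -1.51 and -0.85 in the 3 settings, while Cybb lies at 0.50, -0.81 and 0.42.

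Slide 2 had the lowest mean for Nox4 and the highest for each phagocyte subunit. Nox4 averaged -3.40 on slide 2, -2.19 on slide 1 and -2.16 on slide 3. Rac2 averaged 1.66 on slide 2, 0.91 on slide 1 and 0.87 on slide 3. Within the adequate copper diet with 30% sucrose, the only one of that copper level on several slides, Nox4 averaged -3.89 in the 4 rats on slide 2 and -2.33 in the 2 rats on slide 1. Ncf4 averaged -0.74 and -1.48 in those rats, and Cyba 3.1 and 2.52. Rats of low copper with 10% sucrose gave Nox4 averages of -2.90 on slide 2 (4 rats) and -2.55 on slide 3 (2 rats), and Cybb averages of -3.51 and -4.86. The slide 2 averages of both diets include a rat of the pair. Without rat 5, Nox4 on slide 2 was -3.97, -3.15 and -2.66 on adequate copper with 30% sucrose, against -2.52 and -2.14 on slide 1. Without rat 2, it was -2.88, -2.57 and -1.70 on low copper with 10% sucrose, against -3.02 and -2.08 on slide 3. The lower slide 2 average of that diet thus rested on rat 2.

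The pair of rats moved in opposite directions for Nox4 and for the phagocyte subunits. Rat 5 of adequate copper with 30% sucrose had Nox4 at -5.79, a signal not well above background and so only an upper bound, against a mean of -2.89 in the other 5 rats of its diet, and Ncf1 at 0.73 against -0.42. Rat 2 of low copper with 10% sucrose had Nox4 at -4.45 against -2.45 in the others, and Cyba at 4.54 against 2.38. Over all 24 rats, rat 2 ranked highest in Cybb, Cyba, Ncf1, Ncf4 and Rac2, and rat 5 ranked second in each except Cybb, where it was the third.

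Markers of immune cells moved with these rats. The summed linear signal of 14 measured Kupffer cell and macrophage markers, in multiples of the array's 75th percentile, was 180.0 in rat 2 and 109 in rat 5, and ranged from 35.9 to 64.5 in the 12 rats that ate the control diet or low copper with 30% sucrose. By diet it ranged from 38.2 to 64.5 on low copper with 30% sucrose, 52.5 to 109 on adequate copper with 30% sucrose, 36.8 to 180.0 on low copper with 10% sucrose, and 35.9 to 63.2 on the control diet. The sum of 7 neutrophil markers was 20.1 in rat 5 and 4.47 in rat 2. It ranged from 0.518 to 0.978 on low copper with 30% sucrose, 0.913 to 20.1 on adequate copper with 30% sucrose, 0.512 to 4.47 on low copper with 10% sucrose, and 0.400 to 0.709 on the control diet.

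Against control on adequate copper with 30% sucrose, 13 of 14 macrophage markers lay higher with 1 passing (median 0.35), 7 of 7 neutrophil markers with 5 passing (median 1.54), and 9 of 10 T, B and NK cell markers with 4 passing (median 0.55). Over all genes 20.9% passed and 58.4% lay higher, so the share of macrophage markers that passed was below that of all genes. Once the pair was left out, 11 of 14 macrophage markers lay higher (median 0.19). With slide as a block those medians were -0.36, 0.85 and -0.29 and no marker passed. Of the 12 neutrophil markers listed, the granule protease gene Elane was above background on 0 arrays, Ngp, Mmp8 and Ltf on 1 array each and Np4 on 3. Of the 7 neutrophil markers measured, 4 were above background on all arrays. Of the 14 T, B and NK cell markers listed, 10 were measured and 3 were above background on all arrays. The filter asked for 6 arrays, as many as each diet had rats. A dim marker could therefore be kept through the diet where it was high, which limits the counts for these lists. Of the macrophage markers, 13 of 15 were above background on all arrays and Timd4 was not analysed here. The part of cell content in the subunit levels was not tested.

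Across rats, with each diet's mean removed, Nox4 lay low where the phagocyte subunits lay high. Over 24 rats Pearson's r between Nox4 and Ncf4 was -0.81 (rho -0.62), with Ncf1 -0.78 (rho -0.56), with Rac2 -0.71 (rho -0.48), with Cyba -0.69 (rho -0.49) and with Cybb -0.46 (rho -0.36). The permutation p for r, permuting rats within diets, was 9e-05 for Ncf4 (adjusted p = 0.000483) and 0.0397 for Cybb (adjusted p = 0.0571), and for the other 3 the adjusted permutation p lay between 0.00135 and 0.00714. Adjustment was over 102 p-values of 51 relations. The permutation p for rho gave adjusted values of 0.00849 for Ncf4, 0.00944 for Ncf1, 0.0421 for Rac2, 0.0311 for Cyba and 0.119 for Cybb. These pairs were put together with earlier results known, so the p-values are no independent evidence.

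The relation was weaker without the pair of rats. Without them r was -0.57 for Ncf4 (adjusted permutation p = 0.0406), -0.47 for Ncf1 (0.0898), -0.39 for Cyba (0.149), -0.29 for Rac2 (0.281) and -0.17 for Cybb (0.588). The 2 rats farthest from the median of Nox4 were this same pair. Leaving them out but keeping the diet means computed with them left r between -0.62 and -0.21. Over all 24 rats, with the pair kept, removing slide means as well as diet means left r between -0.81 and -0.56. Slide means were not removed without the pair. Within single slides of 8 rats, with the pair kept on slide 2, the relation to Ncf4 was -0.79, -0.86 and -0.54 on slides 1, 2 and 3. That to Rac2 was -0.53, -0.79 and -0.36.

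**Figure D3:**
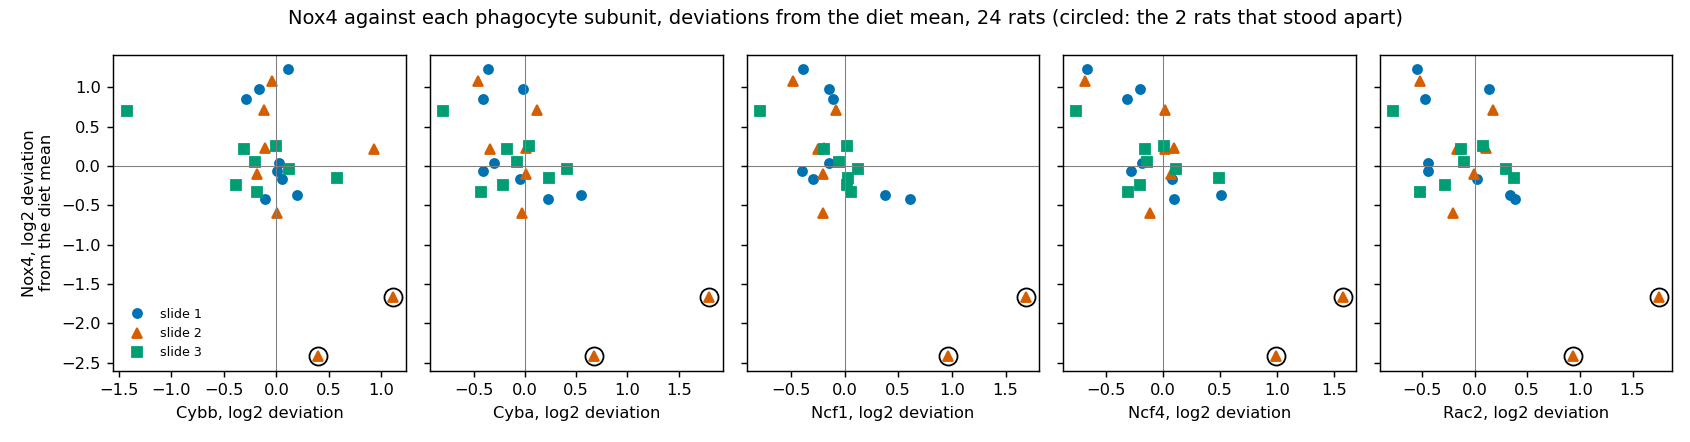
Nox4 against each phagocyte subunit in 24 rats, both as log2 deviations from the diet mean, with the slide as colour and shape and the pair of rats that stood apart circled. The circled rats lie at the lower right of each panel, and r over all rats is -0.81 for Ncf4 and -0.46 for Cybb.

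The phagocyte subunits varied together. Over the 10 pairs r ranged from 0.60 (Cybb with Ncf1) to 0.97 (Cyba with Rac2), and rho from 0.25 to 0.96. For Cyba with Rac2 and with Ncf4 and for Ncf4 with Rac2 the permutation p was 1e-05, the smallest that 100000 permutations can give (adjusted p = 7.85e-05 each). Without the pair of rats Cyba with Rac2 stayed at r = 0.93, Ncf4 with Rac2 at 0.85 and Cyba with Ncf4 at 0.84 (adjusted permutation p = 0.000102 each). Cybb was the loosest member, with r between 0.29 and 0.53 to the other 4 without the pair and no adjusted permutation p under 0.05.

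The subunits also followed the summed markers of cell types to different degrees. Cyba followed the macrophage sum with r = 0.97 and rho = 0.93, and Rac2 (0.94), Ncf4 (0.94) and Ncf1 (0.91) followed it too. The adjusted permutation p for r was 0.000510 or less for these 4. Without the pair of rats r was 0.88 for Cyba, 0.81 for Ncf4, 0.80 for Rac2 and 0.61 for Ncf1. Cybb followed the macrophage sum with r = 0.60 (adjusted permutation p = 0.0815) and r = 0.27 without the pair. Its r was 0.68 with the endothelial sum (rho 0.49, adjusted permutation p = 0.00748) and 0.65 with the stellate sum (rho 0.42, adjusted permutation p = 0.00781), and without the pair these were 0.63 and 0.53 (adjusted permutation p = 0.107 and 0.0940). Ncf4 (0.80), Rac2 (0.76) and Cyba (0.72) also followed the stellate sum, with r of 0.71, 0.65 and 0.63 without the pair.

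Ncf1 had the highest r with the neutrophil sum, at 0.83 over all rats and 0.66 without the pair (adjusted permutation p = 0.00173). Over all rats Ncf4 (0.77), Rac2 (0.76) and Cyba (0.71) were close to it, while Cybb stood at 0.48. The r of Ncf1 with the macrophage sum was 0.91 over all rats and 0.61 without the pair. Without the pair the r of the other 4 phagocyte subunits with the neutrophil sum lay between 0.24 and 0.48. The difference between Ncf1 and these was not tested. Cell types share rats and depth here, and several sums were high in the same animals.

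For Nox4, known from hepatocytes and stellate cells, the level followed neither of their marker sums upward. Its r with the sum of 12 hepatocyte markers was 0.03 (rho 0.04, permutation p = 0.896, adjusted p = 0.896), and 0.31 without the pair of rats (adjusted permutation p = 0.281). With the sum of 10 stellate cell and fibroblast markers r was -0.67 (rho -0.59, adjusted permutation p = 0.00255), and -0.41 without the pair (adjusted permutation p = 0.0965). With the macrophage sum r was -0.74 (adjusted permutation p = 0.00136) and with the neutrophil sum -0.85 (adjusted permutation p = 0.00485), and without the pair these were -0.43 (0.0715) and -0.40 (0.196). Among the stellate markers Lum was above background on 0 arrays. A sum of linear signals weighs its brightest markers most and is no measure of the number of cells. The cell source of Nox4 was not tested.

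**Figure D4:**
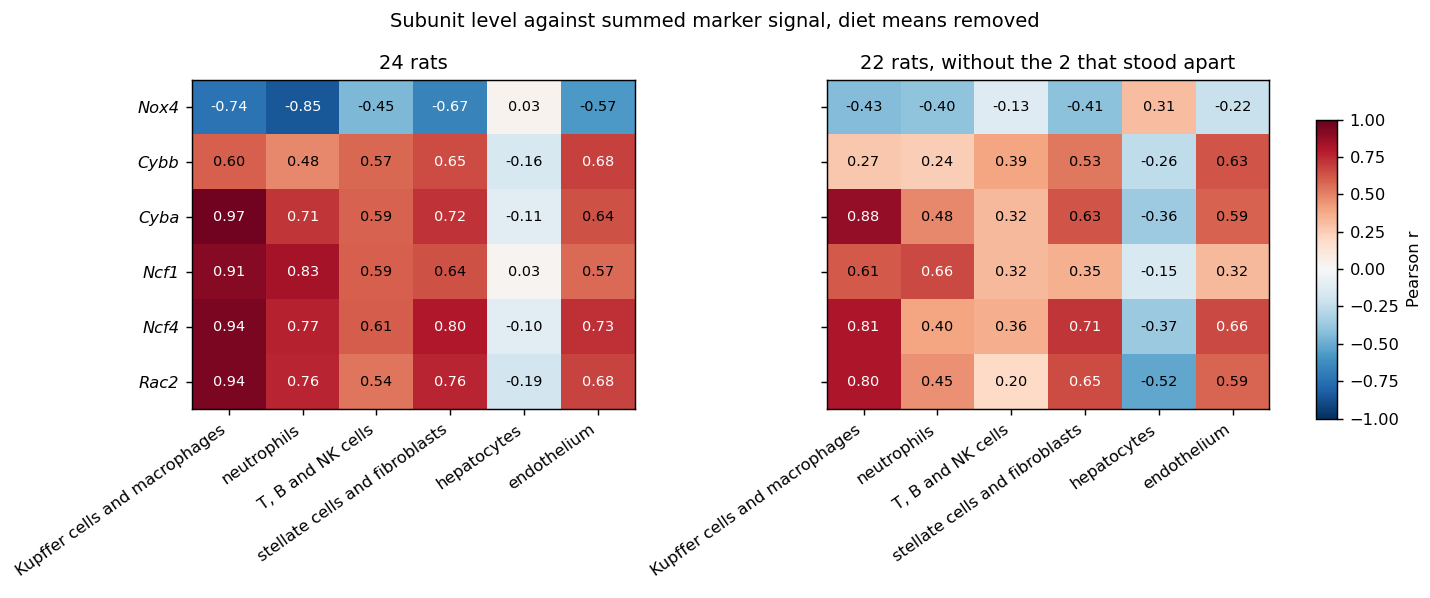
Pearson's r between the level of each subunit and the log2 summed signal of cell type markers, with diet means removed, over 24 rats on the left and over the 22 rats without the pair that stood apart on the right. Colour runs from -1 to 1. Nox4 is negative for every list but hepatocytes, and Cyba, Ncf4 and Rac2 keep r of 0.80 or more with the macrophage sum on the right.

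Other genes of the oxidase pathway were described from 5 lists. Of 15 other oxidases, maturation factors and organizers, 8 were measured. Nox1 was above background on 2 arrays, Nox3 on 3, and Duoxa2 and Sh3pxd2a on 0. Sh3pxd2b and Rac3 were not analysed here.

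The organizer and activator of the epithelial oxidase Nox1, and a dual oxidase, carried the calls of that list. Noxo1, the homologue of Ncf1 that organizes Nox1, had a mean of -0.95 ± 0.25 on adequate copper with 30% sucrose, against -2.10 ± 0.20 for control rats (SD, n = 6 each). It rose by 1.16 (limma adjusted p = 0.00129). Its lowest rat on that diet, at -1.26, lay above the highest control rat at -1.85, where 2221 of the 18641 genes (11.9%) separated in this way. These diets share no slide, and with slide as a block the Noxo1 difference was 0.13 (SE 0.32). Without the block, Noxo1 on low copper rose by 1.18 with 10% sucrose (adjusted p = 0.00110) and by 0.89 with 30% sucrose (adjusted p = 0.0405) over control. Noxo1 was the 1 pathway gene of 47 that passed on low copper with 30% sucrose, where 1.76% of all genes did.

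Duox2, a peroxide-making oxidase of epithelia, averaged -2.09 ± 0.32 on adequate copper with 30% sucrose and -2.25 ± 0.76 on low copper with 10% sucrose, against -3.50 ± 0.21 on the control diet. It rose by 1.41 (adjusted p = 0.00106) and 1.25 (adjusted p = 0.00162). Noxa1, which activates Nox1, rose by 0.56 (adjusted p = 0.0424) and 0.67 (adjusted p = 0.0168) in the same comparisons. The medians of the 8 genes were 0.10 and 0.27 there, against 0.07 and 0.05 over all genes, and 3 of 8 passed in each, all higher, where 20.9% and 18.6% of all genes passed. Its other members measured were Duox1, Duoxa1, Cybc1, Poldip2 and Rac1.

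Kinases, exchange factors and regulators that switch on the phagocyte enzyme formed the second list, with 13 of 16 measured. On adequate copper with 30% sucrose 12 of 13 lay higher than control with a median of 0.34, where 58.4% of all genes lay higher. Of the 13, 1 passed, where 20.9% of all genes did. It was Fgr, a Src family kinase of myeloid cells, which rose by 0.77 (adjusted p = 0.0296). With slide as a block 9 of 13 lay higher (median 0.15) and none passed. Without a slide term, 11 of 13 lay higher on low copper with 10% sucrose, with a median of 0.21. None of them passed, where 18.6% of all genes did. There 7 of 13 lay higher without the pair of rats (median 0.05), and 6 of 13 with slide as a block (median -0.03). Prkcb, the protein kinase C isoform that phosphorylates Ncf1, had the smallest p at 0.48 (adjusted p = 0.251). On low copper with 30% sucrose 9 of 13 lay higher with a median of 0.05, none passed, and Prkcd, a related kinase, had the smallest p at 0.27 (adjusted p = 0.402).

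Receptors that trigger the burst were measured for 11 of 12 genes. Itgam, the CD11b chain of complement receptor 3, averaged 0.46 ± 0.40 on adequate copper with 30% sucrose and 0.38 ± 0.37 on low copper with 10% sucrose, against -0.41 ± 0.29 on the control diet. It rose by 0.87 (adjusted p = 0.00721) and 0.78 (adjusted p = 0.0129). Itgam was the only receptor to pass in either, where 20.9% and 18.6% of all genes passed. In these comparisons 10 of 11 receptors lay higher, with medians of 0.50 and 0.27, where 58.4% and 58.3% of all genes lay higher. Without the pair of rats 9 and 6 of 11 lay higher, with medians of 0.31 and 0.05. With slide as a block, over all rats, 6 and 3 of 11 lay higher, with medians of 0.01 and -0.05. On low copper with 30% sucrose and without a slide term, 6 of 11 lay higher with a median of 0.02, and Itgam stood at 0.44 (adjusted p = 0.313).

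Ligands, receptors and Smads of TGF-beta signalling, which is known to induce Nox4, were measured for 8 of 9 genes. Tgfb2, a ligand, averaged -3.03 ± 0.17 on adequate copper with 30% sucrose and -2.83 ± 0.70 on low copper with 10% sucrose, against -4.28 ± 0.50 on the control diet. It rose by 1.25 (adjusted p = 0.00181) and 1.45 (adjusted p = 0.000898). It was the only gene of the list to pass in either, where 20.9% and 18.6% of all genes passed, and the list medians were -0.01 and -0.04. With slide as a block the Tgfb2 differences were 0.14 (SE 0.36) and 0.66 (SE 0.27), and neither passed. Without the block, Tgfb2 stood at 0.86 on low copper with 30% sucrose (adjusted p = 0.0634).

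Enzymes that make NADPH, the electron donor, were measured for 7 of 8 genes and none passed in any of the 6 comparisons. The genes with the smallest p were Me1, the malic enzyme, at 0.82 on low copper with 30% sucrose (adjusted p = 0.253), and Taldo1, a transaldolase, at -0.26 on adequate copper with 30% sucrose (adjusted p = 0.190). On low copper with 10% sucrose it was Idh1, the cytosolic isocitrate dehydrogenase, at -0.23 (adjusted p = 0.255). The list medians against control lay between -0.09 and 0.03.

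Between low and adequate copper at 30% sucrose, and between 30% and 10% sucrose at low copper, no pathway gene passed. The smallest p of each list in the first of these fell on Duox2 at -0.55 (adjusted p = 0.482), Vav1, an exchange factor for Rac, at -0.93 (adjusted p = 0.463), Itgam at -0.43 (adjusted p = 0.519), Tgfb1 at -0.74 (adjusted p = 0.506) and Taldo1 at 0.23 (adjusted p = 0.557). In the comparison of sucrose at low copper they fell on Duoxa1, a maturation factor of the dual oxidases, at -0.29 (adjusted p = 0.558), Rap1a, a small GTPase found with the phagocyte enzyme, at 0.37 (adjusted p = 0.471), Itgam at -0.35 (adjusted p = 0.599), Tgfb2 at -0.60 (adjusted p = 0.487) and Idh1 at 0.23 (adjusted p = 0.543).

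Of the pathway genes measured, 7 passed for the interaction, a smaller share than the 20.8% of all genes that did. They included Duox2 at -1.80 (adjusted p = 0.00203), Noxo1 at -1.46 (adjusted p = 0.00287), Noxa1 at -0.85 (adjusted p = 0.0308) and Fgr at -1.06 (adjusted p = 0.0350). The others were Itgam at -1.21 (adjusted p = 0.00822), Tgfb2 at -1.85 (adjusted p = 0.00194) and Rap1a at 0.57 (adjusted p = 0.0415). None of the pathway calls in any comparison passed with slide as a block. Under it the differences from control on adequate copper with 30% sucrose were 0.20 for Duox2, 0.13 for Noxo1, 0.14 for Tgfb2, 0.21 for Noxa1, 0.46 for Itgam and 0.65 for Fgr, and Noxo1 on low copper with 30% sucrose turned to -0.15. Within slide 3, the 2 low copper rats lay above the mean of the 6 control rats by 0.51 for Noxo1, 0.37 for Duox2, 0.66 for Tgfb2, 0.58 for Itgam and 0.45 for Noxa1. Without the pair of rats Noxo1, Duox2, Itgam and Tgfb2 still passed against control in both comparisons, sucrose at adequate copper and low copper at 10% sucrose, and Noxa1 passed only in the low copper comparison. Fgr still passed on adequate copper with 30% sucrose (0.60, limma adjusted p = 0.0408). In the interaction Fgr (-0.69, adjusted p = 0.103) and Rap1a (0.47, adjusted p = 0.130) no longer passed without the pair.

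**Figure D5:**
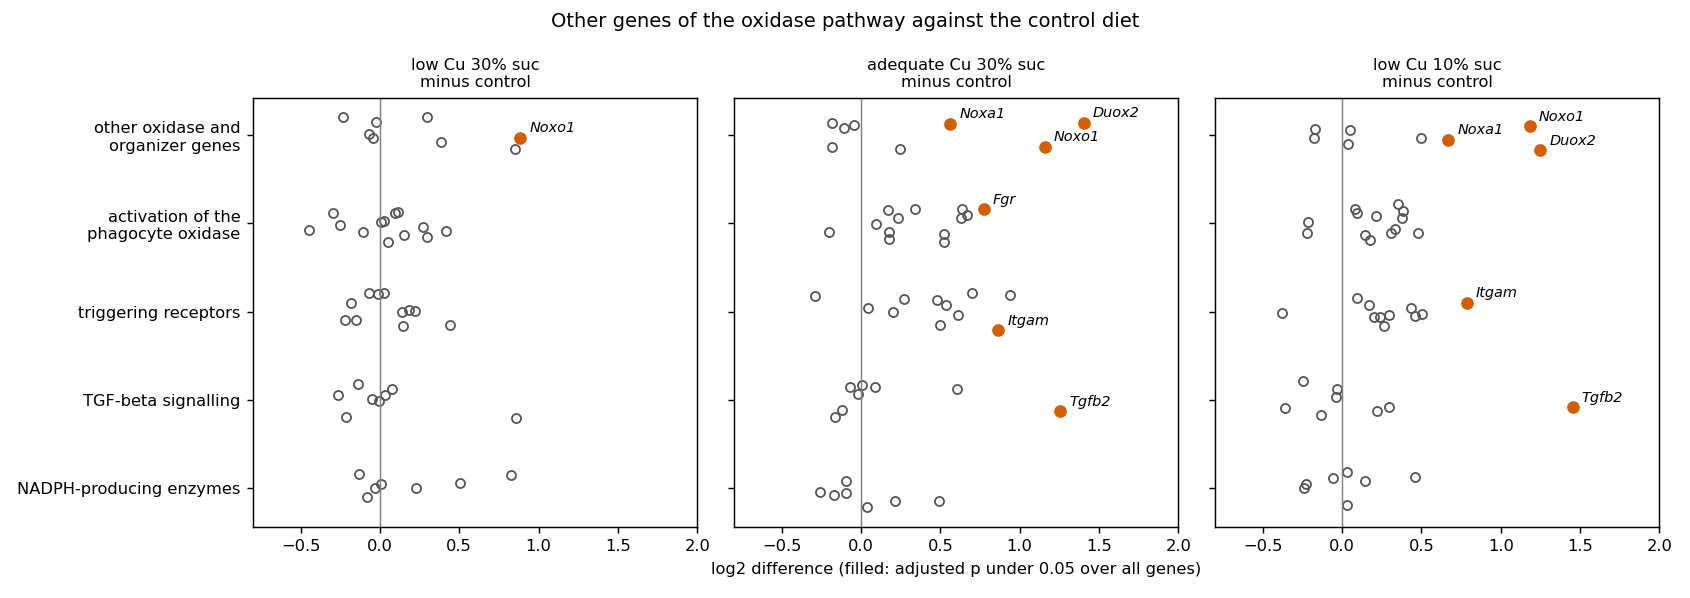
Differences from the control diet in log2 units for the measured genes of 5 pathway lists, 1 point per gene, in 3 diet comparisons. Filled points passed an adjusted p under 0.05 over all 18641 genes in the fit without a slide term, and are Noxo1 (0.89) on low copper with 30% sucrose, 6 genes on adequate copper with 30% sucrose and 5 on low copper with 10% sucrose.

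The genes whose levels over the 24 rats were most like those of Nox4 were Arl6ip1, a protein that shapes the endoplasmic reticulum (r = 0.90, rho = 0.88), Cox6c-ps1 (r = 0.90), Zyg11b (r = 0.88), AW921374 (r = 0.88) and LOC298111, now named Mup4l3 (r = 0.88). Without the 2 rats farthest from the median these fell to between 0.67 and 0.78. Those most like Cybb were Batf, a transcription factor of lymphocytes (r = 0.90, rho = 0.83), XM_224416 (r = 0.89), Kcnn4, a calcium-activated potassium channel (r = 0.88), Xcl1, a chemokine of T and NK cells (r = 0.87), and AABR03086062 (r = 0.86). Without the 2 farthest rats these lay between 0.82 and 0.86. They are the highest of 18641 genes by construction, so no p is given.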

How the data were processed

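Liver RNA of 24 rats was measured on single-colour arrays of 62976 spots. The deposited intensity values were made by Agilent Feature Extraction 10.7.3.1, per the file headers and the submitters' processing notes. Its processed signal is background-subtracted and detrended within an array, and per the file headers the marks of spots (well above background, saturated, outlier) are other values of 0 or 1. A deposited value table of the authors holds a score with median 0 on every array. Its scale and log state are unknown, and it was used only as an alternative, rescaled on an assumption and with a floor of 5.

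Control spots (4259) and outlier spots (0.652%) were left out and spots of a probe were averaged. Values were log2 of the processed signal minus the array's 75th percentile. Probes well above background on at least 6 arrays were kept (21179 of 30367), with the brightest probe of each name, giving 18641 of 26278 gene names. Diets were compared in 1 fit over 24 rats with limma 3.58.1 in R 4.3.3, with Benjamini-Hochberg adjustment over all genes at 0.05, in 6 comparisons. The labels say that rats were housed singly, and p-values measure the spread between them. The number of arrays limits the precision.

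The members and the gene lists were chosen with earlier results of these data known. Genes named were the 6 members, from each pathway list those that passed (at most 4 with the smallest p, or the 1 with the smallest p where none did), and the 5 genes most correlated with Nox4 and with Cybb. Numbers of rats did not pair them across diets: same-numbered rats' deviations correlated between -0.292 and 0.362 over 36 pairs. Alternatives covered background correction, scaling, the filter, probe choice, slide, array weights and the rats included. The fit was tested on simulated data. Promoters and symbols came from RefSeq (GRCr8), and probe positions stayed on rn4. Python 3.11.15, numpy 2.4.6, pandas 2.3.3 and matplotlib 3.10.9 were used. In the text, 1 gene of the pathway lists is not reported here.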

Additional observations from a re-analysis of the deposited data

Results flagged for a closer look

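Among 84 groups of 6 rats (21 named genes in 4 diets), 12 held a rat whose gap to its nearest neighbour exceeded the critical value of Dixon's test. Chance flags about 1 in 20 independent groups, but these groups share rats and hold correlated genes chosen with values known, and rat 2 on low copper with 10% sucrose supplies 6 of the 12, so the count is not read against chance. Of these, 6 were member values. Rat 5 on low copper with 30% sucrose had the highest Nox4 of its diet at -1.15, with the others from -2.56 to -2.10. Rat 2 on low copper with 10% sucrose had Cyba at 4.54 (others 1.95 to 2.75), Ncf1 at 1.30 (others -1.18 to -0.37), Ncf4 at 0.40 (others -1.94 to -1.12) and Rac2 at 3.05 (others 0.53 to 1.29). Rat 5 on adequate copper with 30% sucrose had Ncf1 at 0.73 (others -0.61 to -0.31).

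The same rat 2 had the highest Prkcd of its diet at 0.56 and the highest Prkcb at -0.71, and the same rat 5 the highest Vav1 at -3.23. Further single values were Taldo1 at 3.79 in rat 5 and Duoxa1 at -4.32 in rat 6, both on low copper with 10% sucrose, and Duox2 at -3.91 in control rat 6.

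The copper difference at 30% sucrose differed from that at 10% sucrose for 8 named genes in the limma interaction without a slide term. It was 1.98 for Nox4, -1.80 for Duox2, -1.46 for Noxo1, -0.85 for Noxa1, -1.06 for Fgr, -1.21 for Itgam, -1.85 for Tgfb2 and 0.57 for Rap1a. Over all genes 20.8% passed that interaction. With slide as a block none of the 8 passed, and the part of slide in these values was not tested further.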

How the results depend on the processing

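Counts of genes past the limma adjusted p of 0.05 are given for low copper with 30% sucrose against control, adequate copper with 30% sucrose against control, low copper with 10% sucrose against control, and the interaction, in that order. They were 328, 3888, 3469 and 3884 of all genes, 1, 6, 5 and 7 pathway genes, and 0, 1, 0 and 1 members. With slide as a block they were 0, 0, 0 and 10 of all genes, with 0 pathway genes and 0 members in each, and the comparisons at 30% sucrose and at low copper gave 20 and 6 genes in place of 0. With the block and the 2 distinct rats left out, a setting chosen after seeing the data, they were 0, 0, 0 and 0, again with 0 pathway genes and members, and 22 and 13 in those other 2 comparisons. Slide as a random block (correlation 0.0872) gave 0, 1231, 2286 and 1808 of all genes, 0, 3, 4 and 4 pathway genes and 0 members. The diets and slides overlap, so the block rests on the 2 rats on slide 1 and the 2 on slide 3 whose diets also lay on slide 2.

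Scaling and filters moved the counts too. All genes numbered 0, 2342, 2056 and 3652 with normexp, 4, 2507, 2058 and 2572 with quantile scaling, 2, 2454, 1938 and 2393 in the authors' table, 75, 4410, 3843 and 4287 with no filter, and 10, 2267, 1866 and 2294 over genes above background on all arrays, which drops Nox4. In each of these 5 settings 0 pathway genes passed on low copper with 30% sucrose, and 0 members passed on adequate copper with 30% sucrose. Members in the interaction numbered 2 with normexp and with the mean of probes, and 0 over genes above background on all arrays. With only the compared groups fitted, low copper with 30% sucrose gave 986 genes and 3 pathway genes, and adequate copper with 30% sucrose 10 pathway genes and 2 members. Array weights gave 2126 genes and 3 pathway genes on low copper with 30% sucrose, 10 pathway genes and 2 members on adequate copper with 30% sucrose, 1 member on low copper with 10% sucrose and 4 in the interaction. Without the pair of rats 0 members passed in the interaction. With the replicate block 639 genes and 2 pathway genes passed on low copper with 30% sucrose, 3863 genes on adequate copper with 30% sucrose, and 0 members in any comparison. The causes were not tested.

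Leaving out 1 rat at a time gave 0 to 986, 2933 to 4104, 2599 to 4264 and 3054 to 4828 genes, 0 to 3, 4 to 9, 4 to 7 and 4 to 11 pathway genes, and 0 to 0, 0 to 3, 0 to 1 and 0 to 4 members. The highest counts of all genes in both 30% sucrose diets came without rat 6 of low copper with 10% sucrose. The lowest on adequate copper with 30% sucrose came without rat 5 of that diet. The comparison at low copper gave 0 to 41 genes and that at 30% sucrose 0 to 0. Noxo1 on low copper with 30% sucrose reversed to -0.15 with slide as a block and to -0.19 with the block and without the pair. Of the other single-gene values tallied, 608 were labelled the same, 65 weaker (direction kept, call lost) and 33 moved. These labels do not count every change of sign. With slide as a block, Cybb turned to -0.81 and Cyba to -0.08 on adequate copper with 30% sucrose against control. Nox4 turned to -0.80 for 30% against 10% sucrose at low copper, and other members changed sign too.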
